A study of Mus musculus with 6 samples.

Results

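Ifi44, Rtp4, Samd9l, Ifi35, Sp100, Tor3a, Ifi27l2a, Lgals3bp and Xaf1 are 9 interferon-stimulated genes that are less often studied than the Ifit, Oas or Mx families. They were chosen by name with earlier results of these data known, all 9 of the 9 names being among the 12969 genes of the table. RNA-seq was done on infarct tissue in 3 Irf3 knockout libraries (genotype IRF3-/-) and 3 wild-type libraries, from male mice about 12 weeks old and sampled 4 days after a suture had closed the left anterior coronary artery for good. The labels do not state that every library comes from its own animal. The wild-type mice were C57BL/6. For the knockout mice the sources used here give no strain, so strain and genotype cannot be told apart. All 6 libraries are from infarct tissue, and the labels name no sham or uninjured group. Levels were RPKM, which divides reads by gene length and by the depth of the library, as the authors deposited them.

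Type I interferons signal through the receptor chains Ifnar1 and Ifnar2 and the kinases Jak1 and Tyk2, which activate transcription factors that bind interferon-stimulated response elements in promoters. Irf3 is activated by nucleic acid sensors upstream of interferon and can also bind such elements directly. In the infarcted heart the DNA of dying cells taken up by phagocytes is a known trigger of this pathway. Setting knockout against wild type shows which RNAs of the healing tissue differ with Irf3.

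The genes lie on chromosomes 1 (Sp100, Tor3a), 3 (Ifi44), 6 (Samd9l), 11 (Ifi35, Lgals3bp, Xaf1), 12 (Ifi27l2a) and 16 (Rtp4). Promoters are printed for the gene with the deepest loss (Ifi44), the most abundant one (Lgals3bp), the longest one (Sp100) and the one whose level followed another pattern (Xaf1). RefSeq promoter sequences (GRCm38.p6, 250 bases before to 50 after the start site) matched 6 of the 9 genes; none was matched for Rtp4, Tor3a and Ifi27l2a. The stretches run from 80 bases before to 30 after the start site, and capitals mark each match to AANNGAAA on either strand, the core that interferon regulatory factors recognise. Ifi44 lies on chromosome 3 (chr3:151749881-151749990, minus strand), Lgals3bp on chromosome 11 (chr11:118401930-118402039, minus strand), Sp100 on chromosome 1 (chr1:85649908-85650017, plus strand) and Xaf1 on chromosome 11 (chr11:72301549-72301658, plus strand).
Ifi44: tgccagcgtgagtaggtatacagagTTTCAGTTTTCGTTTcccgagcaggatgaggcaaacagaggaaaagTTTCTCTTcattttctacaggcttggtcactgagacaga
Lgals3bp: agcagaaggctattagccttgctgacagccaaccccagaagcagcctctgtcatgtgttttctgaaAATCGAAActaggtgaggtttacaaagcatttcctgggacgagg
Sp100: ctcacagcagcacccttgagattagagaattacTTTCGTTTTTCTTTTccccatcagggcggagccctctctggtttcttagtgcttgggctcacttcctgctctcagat
Xaf1: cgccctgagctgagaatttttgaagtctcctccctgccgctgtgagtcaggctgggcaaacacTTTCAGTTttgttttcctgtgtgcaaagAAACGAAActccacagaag

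In Ifi44 the matches from position -55 to -48 and from -48 to -41 share 1 base and read on the strand opposite to the gene, and another spans -9 to -2. Sp100 also held a pair that shares 1 base, from -47 to -40 and from -40 to -33. Counted from another annotated Sp100 start site, the same pair lies from -73 to -66 and from -66 to -59. Lgals3bp held 1 match, from -14 to -7. Xaf1 held 1 on the opposite strand from -17 to -10 and 1 on its own strand from 12 to 19 after the start. Of the promoters not printed, Samd9l held matches from -14 to -7 and from 28 to 35, and Ifi35 held 1 from 15 to 22, overlapping a match to the GAS core TTCNNNGAA from 8 to 16. The promoters of all 6 genes thus held AANNGAAA, against 23.9% of the 32851 promoters of the same length. The 6 are counted by gene, with a match in any of its promoters, and the 32851 by promoter. None held the longer core of the response element, GAAA repeated after a gap of 2 bases, which 3.44% of all promoters hold, and 1 of 6 held TTCNNNGAA, against 8.3%. AANNGAAA was searched only after that longer core gave no match. A match is a description of letters, and Xaf1 carries it as the others do.

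The targeted gene Irf3 was at 7.4, 8.74 and 7.68 RPKM in the knockout, against 13.76, 13.87 and 11.56 RPKM in the wild type. The sources used here do not name the deleted part of the gene, so reads can remain. Knockout replicate 2 stood apart from the other 5 libraries, with a median-of-ratios scaling factor of 0.817 against 1.024 to 1.085 and with low values for long genes. Levels of the 9 genes relative to the wild type and fold changes of their relatives are therefore also given without it.

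Of the 9 genes, 8 were lower in every knockout library than in every wild-type library, a pattern shown by 11.8% of the 12913 genes tested. Without knockout replicate 2 it was the same 8 of 9, against 13.3% of all genes. Xaf1 was the exception, and its groups overlapped; 0 of the 9 lay above the wild type in every library, against 6.61% of all genes. Across all genes 2 of the 9, Ifi44 and Rtp4, fell (limma on log2(RPKM + 1), adjusted p under 0.05), against 0.356% of all tested genes. No member rose, against 0.147% of all tested genes, and 0 of 9 were higher at an unadjusted limma p under 0.05. At that unadjusted threshold 8 of 9 were lower, against 5.96% of all genes. Without knockout replicate 2, 1 of 9, Xaf1, was higher at that threshold and 8 were lower. With all 6 libraries the median log2 fold change of the 9 genes was -1.04 and that of all tested genes was -0.09. In bulk tissue, fewer cells of a type and less RNA per cell cannot be told apart.

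Markers of the cell types of the tissue differed between the groups in part. Summed RPKM of the 9 fibroblast markers was 3352 to 4551 in knockout libraries and 5428 to 5908 in wild-type libraries, with no overlap. The collagen genes Col3a1 and Col1a1 made up much of that sum. They averaged 1286 and 1139 RPKM in the knockout and 1724 and 1444 RPKM in the wild type. Col1a2, Col3a1, Postn and Cthrc1, matrix genes and 4 of these 9, were lower in every knockout library, as were 11.8% of all tested genes. The groups overlapped for Col1a1, Pdgfra, Dcn, Lum and Tcf21, and Lum was above 0 on the log2 scale, at 0.12. The 11 monocyte and macrophage markers summed to 2179 to 5603 in the knockout and 3264 to 6002 in the wild type, with the lowest value in knockout replicate 2. Lyz2, a lysozyme, made up much of that sum, at 833.22 to 3825.58 RPKM in the knockout and 1772.20 to 3288.67 RPKM in the wild type. Of the 11 log2 fold changes 10 were below 0, and Cd68 was above 0, at 0.293. In 2 of the 11 genes every knockout library lay below every wild-type library, as in 11.8% of all tested genes. Ly6c2, a surface marker of inflammatory monocytes, was at 1.87, 1.81 and 4.22 RPKM in the knockout, against 11.58, 5.56 and 7.91 RPKM in the wild type (limma adjusted p = 0.203). Mertk, a receptor for the uptake of dying cells, was at 13.00, 4.09 and 12.02 RPKM in the knockout, against 20.41, 18.03 and 13.48 RPKM in the wild type (limma adjusted p = 0.556). The Fc receptor Fcgr1 averaged 16.9 ± 7.85 RPKM in the knockout and 32.8 ± 10.9 RPKM in the wild type (SD, n = 3 each), with overlapping groups. These marker genes were singled out after their values were seen. No marker of either list was called by limma, and 2 of the 9 fibroblast markers were lower at an unadjusted p under 0.05. So were 3 of the 11 macrophage markers and 5.96% of all tested genes. Without knockout replicate 2, 8 of the 9 fibroblast and 7 of the 11 macrophage markers were below 0. The same 4 and 2 genes had every knockout library below every wild-type library, against 13.3% of all genes. Cd68, Csf1r, Lyz2 and Cd14 were then above 0, at 0.472, 0.145, 0.589 and 0.36 on the log2 scale. The 10 cardiomyocyte markers summed to 12050 to 20610 in the knockout and 5889 to 16040 in the wild type. The highest value was in knockout replicate 2, and the highest knockout value without it was 14540. All 10 log2 fold changes were above 0, with a median of 0.566, and the groups overlapped for each of the 10. None of the 10 was called by limma or passed an unadjusted p under 0.05. Without knockout replicate 2 their median was 0.486, and 1 of the 10 was below 0. Sums of the 7 endothelial markers (160.3 to 287.9 in the knockout, 218.5 to 312.8 in the wild type) and the 5 neutrophil markers (42.28 to 58.85 in the knockout, 35.21 to 95.09 in the wild type) overlapped, and the 1 lymphocyte marker in the table was at 0.69 to 0.93 in the knockout and 1.32 to 1.34 in the wild type. Without knockout replicate 2 the lowest knockout sums were 277.0 for the endothelial markers and 4499 for the macrophage markers. No marker was at 0 in any library. Their part in the levels of the 9 genes was not tested. The libraries held 14.8 to 61.9 M reads in genes, which put 21 to 11822 reads behind each value of the 9 genes.

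**Figure D1:**
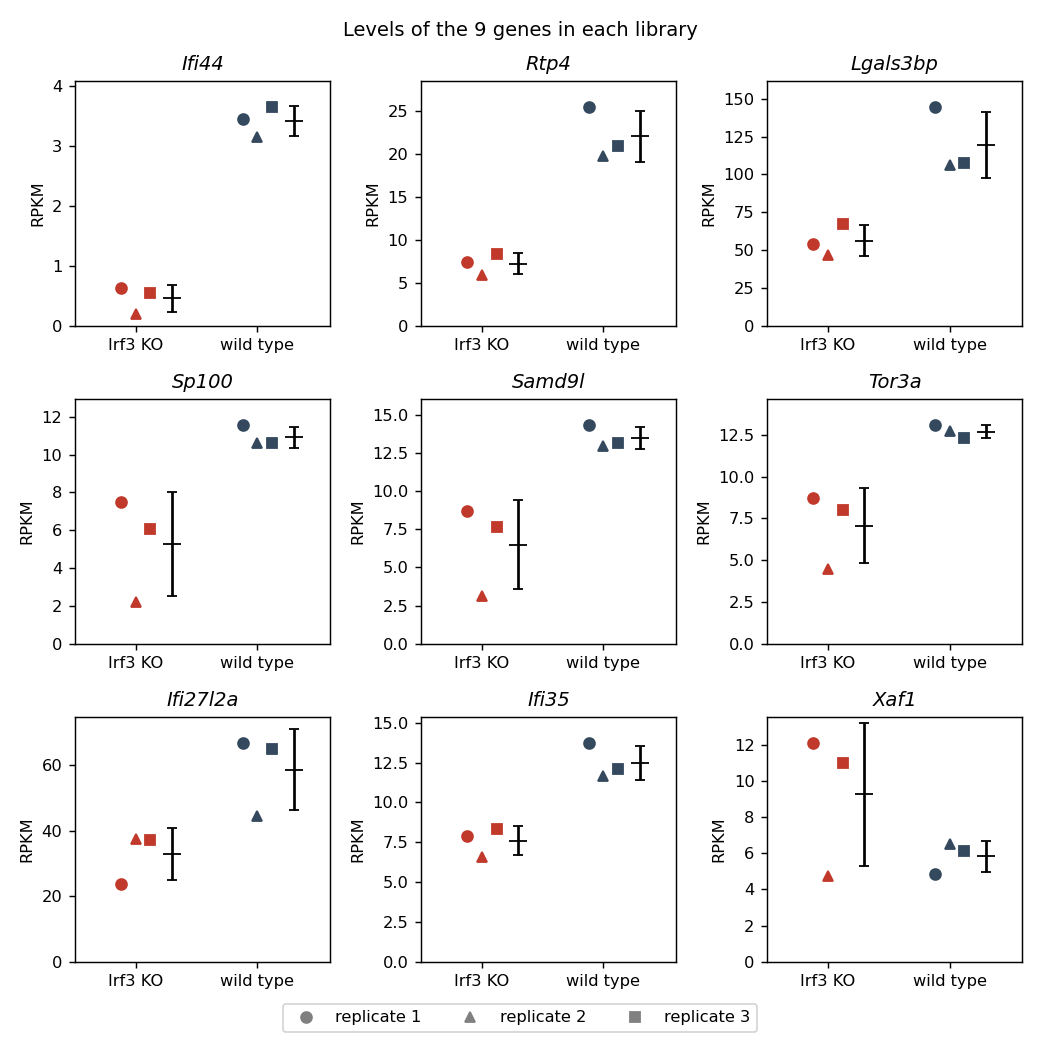
RPKM of the 9 genes in each Irf3 knockout and wild-type library, with the marker giving the replicate number; dashes and bars are the mean and SD of 3 libraries. In 8 panels every knockout point lies below every wild-type point, and in the Xaf1 panel knockout replicates 1 and 3 lie above all wild-type points while knockout replicate 2 lies at 4.74, below them.

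Among the cytosolic members, Ifi44, a protein with a GTPase-like domain that limits the growth of some viruses in human cells, had the lowest level and the deepest loss. It stood at 0.62, 0.19 and 0.55 RPKM in knockout replicates 1 to 3, against 3.45, 3.15 and 3.64 RPKM in wild-type replicates 1 to 3. Every knockout library was thus under 1 RPKM and every wild-type library over 3 RPKM. The fold change was -1.61 ± 0.18 on the log2(RPKM + 1) scale (SE, n = 3 per group, limma adjusted p = 0.00905), which understates the change of so low a gene; mean RPKM was 7.53-fold lower in the knockout. The value of 0.19 RPKM corresponds to about 21 reads, with an exact 95% Poisson interval of 13.0 to 32.1 reads for counting error only.

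Rtp4, a zinc-finger chaperone that helps some G protein-coupled receptors reach the cell surface and that also limits some RNA viruses, stood at 7.43, 5.87 and 8.33 RPKM in the knockout, against 25.39, 19.76 and 20.87 RPKM in the wild type. The highest knockout library was well under the lowest wild-type library. Its fold change was -1.49 ± 0.20 (SE, n = 3 per group, limma adjusted p = 0.0232), or 3.05-fold lower by mean RPKM. An annotated transcript, Gm45338, shares 296 exonic bases with Rtp4 on the same strand. Both calls depended on single libraries. Ifi44 lost its call without knockout replicate 3, wild-type replicate 1 or wild-type replicate 3 (limma adjusted p = 0.0527, 0.0671 and 0.0822). Rtp4 lost its call without knockout replicate 3 or wild-type replicates 1, 2 or 3 (limma adjusted p = 0.0676, 0.121, 0.108 and 0.144).

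Samd9l, a large protein that represses translation and restricts poxviruses, stood at 8.70, 3.15 and 7.67 RPKM in the knockout, against 14.33, 12.96 and 13.16 RPKM in the wild type. Knockout replicate 2 was the low one, and the groups did not overlap. The log2 fold change of -1.04 ± 0.32 did not pass (SE, n = 3 per group, limma adjusted p = 0.434). Ifi35, which forms a complex with the related protein Nmi, was at 7.87, 6.59 and 8.36 RPKM in the knockout, against 13.71, 11.64 and 12.12 RPKM in the wild type, which is -0.65 ± 0.18 on the log2 scale (limma adjusted p = 0.361). Its knockout libraries were close to each other and below all wild-type libraries. An antisense gene, Gm11626, overlaps 290 exonic bases of Ifi35 on the opposite strand, and without the strand setting reads of both cannot be told apart. Nmi itself was at 7.03, 3.43 and 5.53 RPKM in the knockout, against 11.14, 8.44 and 8.93 RPKM in the wild type (-0.76 ± 0.25 on the log2 scale, limma adjusted p = 0.499), and at -0.53 ± 0.17 without knockout replicate 2 (limma adjusted p = 0.436).

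In the nucleus, Sp100, a core component of PML nuclear bodies, stood at 7.51, 2.22 and 6.06 RPKM in the knockout, against 11.55, 10.59 and 10.59 RPKM in the wild type. The wild-type libraries differed little, and knockout replicate 2 was lowest by far. The log2 fold change was -1.04 ± 0.34 and did not pass (limma adjusted p = 0.49). Of the relatives and partners of the 9 genes 17 were tested. None was called by limma, and 3 were lower and 0 higher at an unadjusted p under 0.05, against 5.96% lower among all tested genes. Nmi, Sp110, Sp140, Pml, Tor1aip2 and Xiap had every knockout library below every wild-type library, as did 11.8% of all tested genes. These same 6 of the 17 had every knockout library below without knockout replicate 2, against 13.3% of all genes. The related Sp110 averaged 1.02 ± 0.515 RPKM in the knockout and 2.81 ± 0.225 RPKM in the wild type (SD, n = 3 each; adjusted p = 0.2 from limma). For Sp140 the means were 1.66 ± 0.906 RPKM in the knockout and 2.80 ± 0.370 RPKM in the wild type (adjusted p = 0.556 from limma). Pml, the scaffold of the same bodies, averaged 6.22 ± 1.07 RPKM in the knockout and 9.02 ± 0.695 RPKM in the wild type (SD, n = 3 each; adjusted p = 0.556 from limma). Daxx, a histone chaperone of these bodies, averaged 8.73 ± 0.737 RPKM in the knockout and 11.3 ± 1.61 RPKM in the wild type (SD, n = 3 each; adjusted p = 0.556 from limma), and its groups overlapped. With knockout replicate 2 left out, the log2 fold changes of Sp110, Sp140, Pml and Daxx were -0.73, -0.27, -0.36 and -0.28 (limma adjusted p = 0.105, 0.76, 0.543 and 0.756). Transcripts of 12 other genes hold stretches of at least 100 bases at least 95% identical to Sp100, the longest being 399 bases in Gm7609, a gene that is not analysed here, so its reads could be split by the counting.

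Tor3a, an AAA+ ATPase of the endoplasmic reticulum, stood at 8.70, 4.49 and 8.02 RPKM in the knockout, against 13.08, 12.72 and 12.32 RPKM in the wild type. Its wild-type libraries lay within 97.0% to 103% of their mean, the narrowest range of the 9 genes. The log2 fold change was -0.81 ± 0.25 (limma adjusted p = 0.434). For the other torsins Tor1a, Tor1b and Tor2a the log2 values were -0.04 ± 0.22, -0.21 ± 0.23 and -0.04 ± 0.21 (limma adjusted p = 0.94, 0.673 and 0.932), with overlapping groups. Their cofactors Tor1aip1 and Tor1aip2 were at -0.18 ± 0.19 and -0.48 ± 0.25 (limma adjusted p = 0.658 and 0.556). Without knockout replicate 2 the values of Tor1a, Tor1b and Tor2a were above 0, at 0.13, 0.02 and 0.10, and those of Tor1aip1 and Tor1aip2 were -0.03 and -0.22 (limma adjusted p from 0.769 to 0.98). Whether Tor3a differs from these relatives was not tested.

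Ifi27l2a, a small hydrophobic protein of the ISG12 family, was at 23.80, 37.61 and 37.29 RPKM in the knockout, against 66.70, 44.47 and 64.85 RPKM in the wild type. Here knockout replicate 1, not 2, was the lowest. The log2 fold change was -0.82 ± 0.26 (limma adjusted p = 0.454). Its neighbour in the family, Ifi27l1, averaged 31.0 ± 10.5 RPKM in the knockout and 42.0 ± 5.34 RPKM in the wild type (SD, n = 3 each), with overlapping groups (limma adjusted p = 0.556). Its log2 fold change was -0.48, and -0.19 without knockout replicate 2. At 463 bases Ifi27l2a is also the shortest of the 9 genes.

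Lgals3bp, a secreted glycoprotein that binds galectin-3 and matrix proteins, was the most abundant member per length. It stood at 54.18, 46.72 and 67.07 RPKM in the knockout, against 144.42, 106.37 and 107.68 RPKM in the wild type. The gap between the groups was wide, yet the log2 fold change of -1.08 ± 0.23 did not pass (limma adjusted p = 0.139). Its ligand Lgals3, a macrophage lectin, was at 422.81, 483.90 and 418.47 RPKM in the knockout, against 543.71, 283.76 and 164.97 RPKM in the wild type (0.58 ± 0.42 on the log2 scale, limma adjusted p = 0.568), and the groups overlapped. The lectins Lgals1 and Lgals9 overlapped as well, at 0.14 ± 0.36 and -0.44 ± 0.23 (limma adjusted p = 0.852 and 0.556). Lgals3, Lgals1 and Lgals9 were at 0.51, 0.23 and -0.31 on the log2 scale without knockout replicate 2 (limma adjusted p = 0.859, 0.913 and 0.797).

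Xaf1, a zinc-finger protein that opposes the apoptosis inhibitor Xiap, did not share the pattern. It stood at 12.08, 4.74 and 10.98 RPKM in the knockout, against 4.87, 6.49 and 6.12 RPKM in the wild type. Knockout replicates 1 and 3 were above every wild-type library, and knockout replicate 2 was just below the lowest. The log2 fold change was 0.51 ± 0.32 (limma adjusted p = 0.556); without knockout replicate 2 it was 0.88 ± 0.15 (limma adjusted p = 0.0712), still short of the threshold. In that fit every knockout library lay above every wild-type library, as for 10.9% of all genes. Xiap was at 10.38, 2.93 and 7.18 RPKM in the knockout, against 11.19, 11.58 and 10.78 RPKM in the wild type (-0.77 ± 0.36 on the log2 scale, limma adjusted p = 0.556), and the related inhibitors Birc2 and Birc3 were at -0.43 ± 0.28 and -0.45 ± 0.38 (limma adjusted p = 0.556 and 0.594). Leaving out knockout replicate 2 put Xiap, Birc2 and Birc3 at -0.34, -0.14 and 0.03 on the log2 scale (limma adjusted p = 0.717, 0.883 and 0.96). No exon of another gene overlaps Xaf1 in the GENCODE annotation, although transcripts of 30 genes hold stretches of up to 197 bases at least 95% identical to it.

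The depth of loss was read as the level of each knockout library in percent of the wild-type mean. Ifi44 kept 13.3% ± 6.76 (SD, n = 3) and Rtp4 kept 32.8% ± 5.66. Then came Lgals3bp at 46.9% ± 8.62, Sp100 at 48.2% ± 25.1, Samd9l at 48.3% ± 21.9, Tor3a at 55.6% ± 17.8, Ifi27l2a at 56.1% ± 13.4 and Ifi35 at 60.9% ± 7.32. Xaf1 stood at 159% ± 67.9. The ranges of Ifi44 (5.57% to 18.2%) and Rtp4 (26.7% to 37.9%) overlapped neither each other nor that of the next gene in the order, Lgals3bp, which began at 39.1%. The wider ranges of Sp100 (20.3% to 68.8%) and Samd9l (23.4% to 64.5%) took in that of Rtp4 but did not reach that of Ifi44, and the range of Tor3a (35.3% to 68.5%) overlapped that of Rtp4. From Lgals3bp to Ifi35 each neighbour in the order overlapped the next, so these 6 cannot be ranked beyond their spread. The range of Xaf1 began at 81.4%, above the 66.9% at which that of Ifi35 ended.

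**Figure D2:**
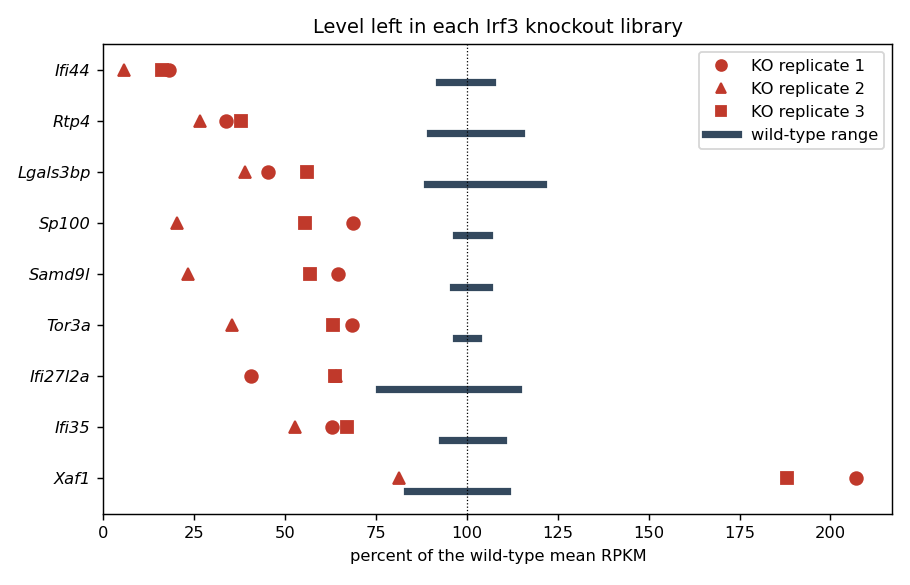
Level of each gene in each Irf3 knockout library, in percent of the wild-type mean RPKM, ordered by the mean of 3 knockout libraries; bars give the range of the wild-type libraries on the same scale. Ifi44 and Rtp4 have the lowest means, 13.3% and 32.8%, and Sp100, Samd9l, Tor3a and Xaf1 have knockout replicate 2 far to the left of the other replicates.

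In knockout replicate 2 the members differed by gene length. Its level over the mean of knockout replicates 1 and 3 was 1.23 for Ifi27l2a (463 bases), 0.745 for Rtp4 (1573 bases), 0.812 for Ifi35 (1727 bases) and 0.771 for Lgals3bp (2847 bases). For the longer members it was 0.537 for Tor3a (3892 bases), 0.411 for Xaf1 (4689 bases), 0.385 for Samd9l (5425 bases), 0.325 for Ifi44 (6116 bases) and 0.327 for Sp100 (7556 bases). The 4 shortest genes thus lay above the 5 longest. The same slope ran through all tested genes. Genes were split by length into 4 bins of 3225 to 3233 genes. In the bin of the shortest genes (27 to 1977 bases) the median difference of knockout replicate 2 from the mean of knockout replicates 1 and 3 was -0.002 on the log2(RPKM + 1) scale. It was -0.21 and -0.38 in the middle bins and -0.59 in the bin of the longest genes (5446 to 116828 bases). No other library moved by more than 0.264 between its shortest and longest bins, measured from the mean of the 6 libraries, against 0.576 for knockout replicate 2.

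**Figure D3:**
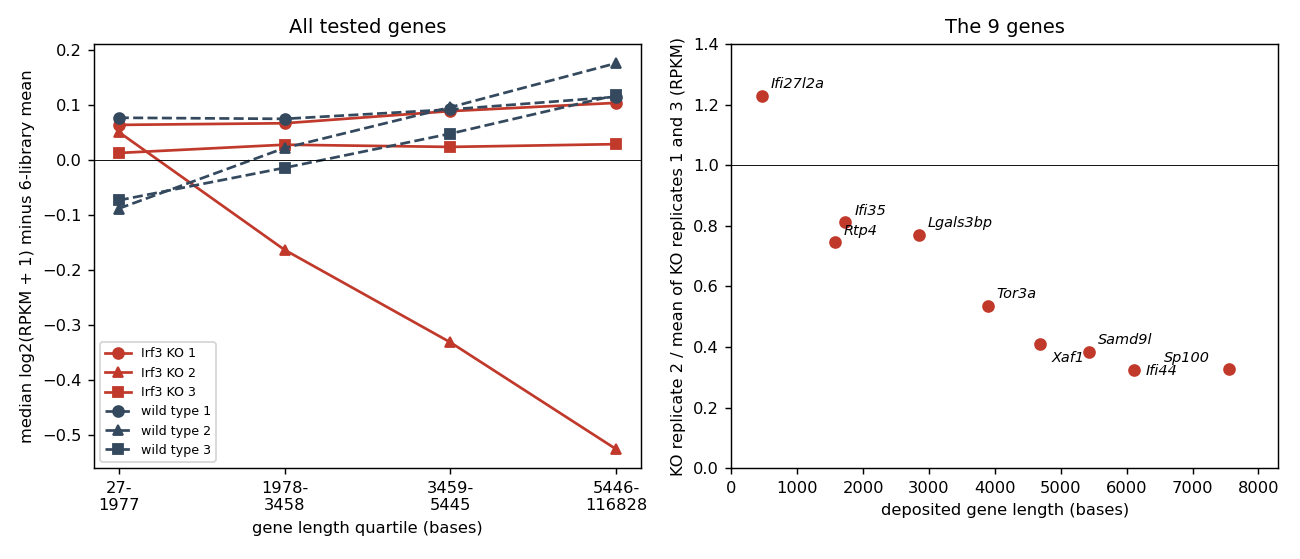
Left, median over all tested genes of log2(RPKM + 1) minus the mean of the 6 libraries, by bin of gene length in bases, for each Irf3 knockout and wild-type library. Right, RPKM in knockout replicate 2 over the mean of knockout replicates 1 and 3 for each of the 9 genes against gene length; the ratio is 1.23 for the shortest gene and 0.327 for the longest.

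The order of loss changed when knockout replicate 2 was left out. Ifi44, Rtp4 and Lgals3bp kept the first 3 places, at 17.1%, 35.8% and 50.7% of the wild-type mean, and Xaf1 stayed last at 198.0%. Ifi27l2a moved to the fourth place at 52.1%, and Samd9l, Sp100, Ifi35 and Tor3a followed at 60.7%, 62.2%, 65.0% and 65.8%. On the log2 scale Sp100, Samd9l and Tor3a were then at -0.62, -0.66 and -0.55 (limma adjusted p = 0.191, 0.121 and 0.189), and Ifi44 and Rtp4 were still called lower, 2 of 9 against 0.541% of all genes. With the length trend of each library removed before the fit, an alternative chosen after seeing the data, Ifi44 and Rtp4 were again called (-1.41 and -1.52 on the log2 scale, limma adjusted p = 0.00382 and 0.0113), against 0.55% of all genes. Sp100, Samd9l and Xaf1 stood at -0.79, -0.86 and 0.67 in that fit (limma adjusted p = 0.349, 0.268 and 0.497).

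**Figure D4:**
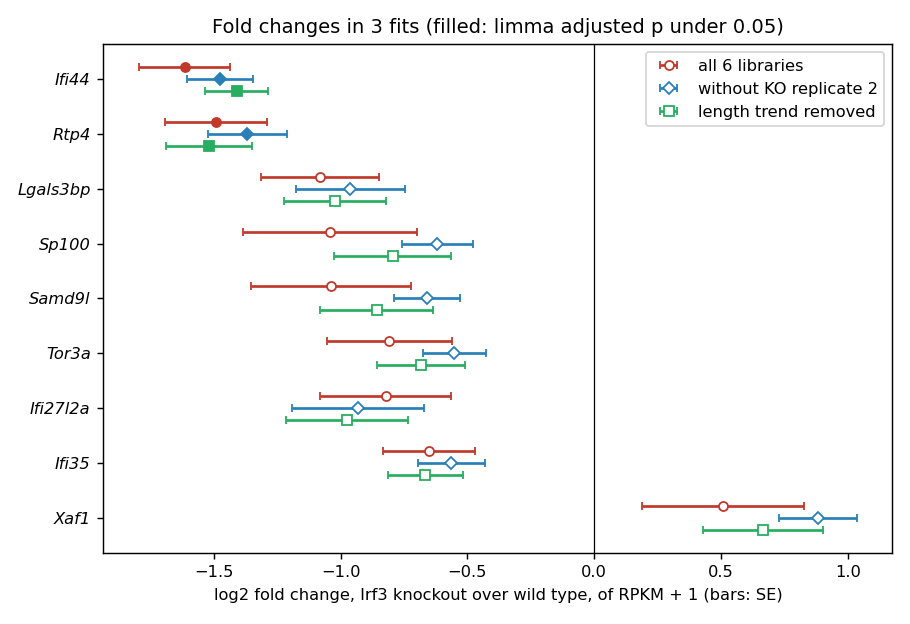
Log2 fold change of RPKM + 1, Irf3 knockout over wild type, with its SE, for each gene with all 6 libraries, without knockout replicate 2 and with the length trend removed; filled markers passed limma at an adjusted p under 0.05. Ifi44 and Rtp4 are filled in all 3 fits, and Xaf1 is above 0 in each, at 0.51, 0.88 and 0.67.

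Other genes of the pathway were counted from lists chosen with earlier results of these data known. Of 48 other interferon-stimulated genes tested, 15 fell and none rose by limma, against 0.356% lower and 0.147% higher among all tested genes. At an unadjusted limma p under 0.05, 43 were lower and 0 higher, against 5.96% lower among all tested genes. In 47 of the 48 every knockout library lay below every wild-type library, as in 11.8% of all tested genes. Their median log2 fold change was -1.41. Among them Isg15, Ifit3 and Ifit1 had the smallest p, at -2.42 ± 0.21, -2.70 ± 0.24 and -2.51 ± 0.27, and Ifitm3 and Ly6e the smallest loss, at -0.37 ± 0.28 and -0.41 ± 0.25. Xaf1 therefore stood above all 48, whose highest value was -0.37. Without knockout replicate 2, 29 of the 48 fell, against 0.541% of all genes. Without knockout replicate 3 and wild-type replicates 1, 2 and 3 the count was 5, 4, 6 and 2.

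Of 10 genes of type I interferon signalling, Irf7, a transcription factor that amplifies the response, fell to 5.29 ± 0.832 RPKM in the knockout, against 32.6 ± 8.07 RPKM in the wild type (SD, n = 3 each; adjusted p = 0.00367 from limma). The transcription factor Stat2 was at -1.05 ± 0.31 (log2 fold change ± SE; limma adjusted p = 0.402), and at -0.68 ± 0.12 without knockout replicate 2 (limma adjusted p = 0.0857). The kinase Tyk2 and the receptor chain Ifnar2 were at -0.14 ± 0.17 and -0.25 ± 0.26 (limma adjusted p = 0.706 and 0.648), with overlapping groups. The list's median was -0.50.

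For each member the gene with the nearest profile over the 6 libraries was looked up among all tested genes other than the members and entries named only by a clone. By root-mean-square difference of log2(RPKM + 1) from the wild-type mean, the nearest to Ifi44 was Pyhin1, a member of the interferon-inducible p200 family (0.168), and the nearest to Rtp4 was Oasl1, a 2'-5' oligoadenylate synthetase-like gene (0.145). Stat2 was nearest to Samd9l (0.079) and Apol9b to Ifi27l2a (0.2). The lysosomal enzyme Glb1 was nearest to Lgals3bp (0.094), Treml2 to Ifi35 (0.069), Pik3c2a to Sp100 (0.083) and Uprt to Tor3a (0.046). This scale compresses low values, so a near profile need not mean an equal loss in percent. Treml2 was at 0.92, 0.46 and 0.83 RPKM in the knockout, against 2.07, 1.69 and 1.55 RPKM in the wild type. Stat2, Pik3c2a and Uprt were lowest in knockout replicate 2, as were Samd9l, Sp100 and Tor3a. For Xaf1 it was the transporter Abca5 (0.177), at 3.66, 1.42 and 3.07 RPKM in the knockout, against 1.47, 2.18 and 2.14 RPKM in the wild type.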

How the data were processed

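RNA-seq of 3 Irf3 knockout and 3 wild-type infarcts was deposited by the authors as RPKM, rounded to 2 decimals, with gene lengths. The submitters' processing notes name STAR 2.3.0, HTSeq 0.6.0, edgeR 3.8.6, Picard 1.100, SAMtools 0.1.18.0 and the build NCBIM37 (mm9), with no role or order. The sources used here do not give settings, strand or filters. Columns were matched to samples by title, and 5 lines with a split name were repaired.

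Reads in genes were estimated from the steps between low values. At the estimated depth 100% of these values lay no more than 0.2 reads off a whole read, against 40% for an arbitrary depth. The depth was chosen to bring these same values close to whole reads, so that share is not a test of it. Rounding left whole reads unrecovered for many genes, so no count test was run. The 12913 genes that averaged 1 RPKM or more entered limma 3.58.1 as log2(RPKM + 1) (R 4.3.3; mean-variance trend, two-sided, Benjamini-Hochberg over all genes, threshold 0.05), after a check on simulated data. An exact permutation test of 3 against 3 cannot go below p = 0.1; it gave 0.1 for 8 members and 0.4 for Xaf1. The labels do not say whether each library is a separate animal, so p-values measure only the spread between samples, which may be technical.

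The members and lists were chosen with earlier results of these data known. Named genes were all members, Irf3, listed relatives and partners of the members, the nearest profile to each member, and from each pathway list the 3 smallest p and the 2 highest fold changes; markers and other list counts complete the text. Listed genes without a row are not analysed here. Alternatives were other pseudocounts, filters, scaling, variance model, library weights, a replicate block and leaving out each library. Exon overlaps and alike transcripts came from GENCODE M21 (GRCm38, blastn 2.17.0).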

Additional observations from a re-analysis of the deposited data

How the results depend on the processing

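No member changed direction under any of the 15 alternatives, Ifi44 being left out of the filter at 5 RPKM. With all 6 libraries 2 members, 46 genes, 15 other interferon-stimulated genes and 1 signalling gene were called lower by limma, and 0 members and 19 genes higher. Leaving out 1 library at a time gave 0 to 2 members (7 to 8 lower at an unadjusted p under 0.05), 15 to 70 genes, 2 to 29 other interferon-stimulated genes and 1 to 2 signalling genes lower, and 6 to 27 genes higher. A mean of at least 5 RPKM left fewer genes to test, and gave 1 member and 22 genes lower and 12 higher. Library weights gave 7 members, 1751 genes, 43 other interferon-stimulated genes and 4 signalling genes lower, and 1209 genes and 1 member, Xaf1, higher (limma adjusted p = 0.0021); those weights ran from 0.103 for knockout replicate 2 to 6.36 for knockout replicate 3, and the default method of estimating them did not converge. Ifi27l2a was the member not called there (limma adjusted p = 0.0661). Without the length trend 71 genes were lower. Median-of-ratios scaling moved the median log2 fold change of all genes to 0.02, against -0.09, and that of the members to -0.94, against -1.04. The other pseudocounts, no filter and no trend called Ifi44 and Rtp4 as well. At an unadjusted limma p under 0.05, 1 member, Xaf1, was higher without knockout replicate 2. It was also higher at that threshold with median-of-ratios scaling, with library weights and with the length trend removed. The cause of these shifts was not tested. Among relatives and partners, an alternative added after seeing the data, Tor1a, Tor1b, Tor2a and Birc3 changed sign without knockout replicate 2 (0.127, 0.018, 0.104 and 0.034 on the log2 scale; not called in either fit). The labels do not say whether the replicate numbers pair the samples. Deviations of same-numbered libraries correlated at 0.129, -0.098 and -0.102, and knockout replicate 2 correlated best with wild-type replicate 3. With 3 libraries per group these correlations cannot settle whether samples are paired. The replicate block gave 187 genes, 36 other interferon-stimulated genes and 2 signalling genes lower and 63 genes higher, and the same 2 members. The promoters of 6 of 6 genes held the core AANNGAAA, and 0 held the response element core with 2 or 3 copies of GAAA.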
